A study of Mus musculus with 11 samples.

Results

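The structural genes of the sarcomere other than the myosins and troponins were examined in C2C12 cells, a mouse myoblast line of the C3H strain that fuses into myotubes when serum is reduced. The set was written down as a list of 41 gene symbols, of 20368 in the expression tables, with earlier results of these data known. Its shares set beside those of all genes are therefore description only. The set held 10 of the thin filament, 17 of the Z-disc, 6 of the M-line and titin, and 8 chaperones or ubiquitin ligases of the sarcomere. The group called M-line and titin also holds Mybph, Mybpc1 and Mybpc2, of the myosin-binding protein C family of the thick filament, not of the M-line. The study asked where MyoD and MyoG bind and how RNA made at enhancers acts in myogenic differentiation. RNA interference against an enhancer-derived RNA called DRR (DRRi) was set against interference with GFP (GFPi), and overexpression of DRR RNA (pHAN_DRR1.2) against overexpression of GFP (pHAN_GFP). These 4 polyA RNA libraries were made from cells placed for 4 h in differentiation medium, which held 2% horse serum with an insulin, transferrin and selenium supplement. ChIP-seq lists of MyoD and of H3K4me1, a histone mark of enhancers, came from proliferating myoblasts in 10% fetal bovine serum and from myotubes at 48 h of differentiation, and a list of MyoG came from myotubes only. Each group was 1 sample of the same cell line, so no difference given here has a replicate check and no test was run.

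A sarcomere is the contractile unit of striated muscle. Actin thin filaments are anchored at the Z-disc by α-actinin, myosin thick filaments are held together at the M-line, and the giant protein titin runs from the Z-disc to the M-line. Myoblasts carry little of this apparatus, and its genes are switched on as the cells leave the cell cycle and fuse, a step in which the transcription factors MyoD and MyoG bind short E-box sequences (CANNTG) near muscle genes.

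Expression was given as FPKM, fragments per kilobase of transcript scaled to the library, so levels can be compared between genes. A change is the log2 ratio of FPKM + 1 between treated and control library, and folds used as limits are on that scale, which understates the change of weak genes. The libraries had between 10516 and 10694 genes at 1 FPKM or more, and their read depth is unknown. The DRR RNA itself is not among the coding sequences of the tables. The cells carried the markers of the myogenic line: of 10 myoblast and myotube markers, Myod1 stood between 33.1 and 68.9 FPKM and Pax7 between 12.3 and 17.1 FPKM in the 4 libraries. In the same list Myog, the gene of MyoG, gave 2.61 FPKM with DRRi and 10.2 with GFPi, 65.8 with pHAN_DRR1.2 and 26.3 with pHAN_GFP. Of this list, 9 genes averaged 1 FPKM or more over both libraries of the DRRi experiment. At least 1.5-fold lower in DRRi were 5 of them, against 3.5% of 10577 genes. Myl1, at 0.556 against 2.33 FPKM, passed through its control library alone and had to differ, so this share is not read further. In pHAN_DRR1.2, 4 of 10 were at least 1.5-fold higher, against 1.38% of 10699 genes. Because these are bulk libraries, fewer differentiating cells and less RNA per cell cannot be told apart.

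RefSeq promoter windows (GRCm38.p6) were found for 30 of the 41 genes, in 35 windows of 250 bases before to 50 bases after a transcription start. The 250 bases before the start are shown for the 6 genes with a matched window and the largest expression differences that also had a MyoD or MyoG peak in or near the locus, with every CANNTG in capitals and the strand of the gene read 5′ to 3′. Trim54 (chr5:31116362-31116611, plus strand) and Pdlim3 (chr8:45885237-45885486, plus strand) had the largest differences in the DRRi experiment. Mybph (chr1:134193198-134193447, plus strand), Lmod2 (chr6:24597521-24597770, plus strand) and Csrp3 (chr7:48848052-48848301, minus strand, the first of its 2 windows) were high in pHAN_DRR1.2, and Mybpc1 (chr10:88605153-88605402, minus strand) was low there.
Trim54: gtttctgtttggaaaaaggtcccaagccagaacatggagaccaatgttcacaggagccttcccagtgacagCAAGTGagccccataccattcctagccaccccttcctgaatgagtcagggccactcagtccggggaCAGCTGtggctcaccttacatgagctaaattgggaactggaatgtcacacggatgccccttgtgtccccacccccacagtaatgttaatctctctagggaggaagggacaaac
Pdlim3: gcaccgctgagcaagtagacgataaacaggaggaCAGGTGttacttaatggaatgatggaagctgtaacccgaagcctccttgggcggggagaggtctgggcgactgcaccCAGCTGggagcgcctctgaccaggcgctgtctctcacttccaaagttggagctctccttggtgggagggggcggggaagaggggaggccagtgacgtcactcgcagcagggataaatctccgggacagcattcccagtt
Mybph: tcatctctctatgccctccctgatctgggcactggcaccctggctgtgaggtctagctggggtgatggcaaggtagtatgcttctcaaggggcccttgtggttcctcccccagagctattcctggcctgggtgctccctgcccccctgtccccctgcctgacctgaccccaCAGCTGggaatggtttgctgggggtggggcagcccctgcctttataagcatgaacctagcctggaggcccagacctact
Lmod2: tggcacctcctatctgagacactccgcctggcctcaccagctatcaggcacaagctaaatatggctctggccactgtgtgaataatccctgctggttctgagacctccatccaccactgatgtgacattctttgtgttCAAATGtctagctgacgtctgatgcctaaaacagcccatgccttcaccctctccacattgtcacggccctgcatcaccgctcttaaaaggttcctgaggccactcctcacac
Csrp3: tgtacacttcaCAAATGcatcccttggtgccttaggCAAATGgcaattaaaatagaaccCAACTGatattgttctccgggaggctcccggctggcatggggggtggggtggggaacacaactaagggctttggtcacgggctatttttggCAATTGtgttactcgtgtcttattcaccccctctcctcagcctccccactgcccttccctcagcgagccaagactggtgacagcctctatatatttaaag
Mybpc1: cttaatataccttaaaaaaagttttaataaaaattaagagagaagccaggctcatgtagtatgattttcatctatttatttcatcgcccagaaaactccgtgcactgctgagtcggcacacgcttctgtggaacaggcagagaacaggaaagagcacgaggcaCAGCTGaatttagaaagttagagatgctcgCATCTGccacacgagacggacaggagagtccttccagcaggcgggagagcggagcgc

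The E-box CAGCTG stood 113 bases before the start of Trim54, 139 before that of Pdlim3, 79 before that of Mybph and 87 before that of Mybpc1. Pdlim3 also held CAGGTG at 216 bases. In the sequences shown, the boxes of Lmod2 and Csrp3 were of other letters, such as CAAATG at 112 bases in Lmod2. Counted over whole 300-base windows, which reach past the start, Lmod2 did hold CAGCTG. Csrp3 likewise held CAGGTG when all its windows were counted. Over the whole 300-base windows and both strands, CANNTG, within which CAGCTG and CAGGTG also fall, was present in 77.1% of the 35 member windows and 72.3% of all 32851 windows. The narrower CAGCTG was in 37.1% of member windows and 16.3% of all, CAGGTG in 22.9% and 20.2%, and TATAAA in 17.1% and 13.6%. CATTCC, the letters of the M-CAT element, was in 34.3% of member windows and 14.7% of all. The CArG box bound by serum response factor was in 14.3% of member windows and 1.63% of all, in Acta1, Actc1, Ldb3 and Myom1. The MEF2 site was also in 14.3% of member windows, against 3.19% of all, in Myoz2, Synpo2l, Ttn and Xirp2. These are matches of letters only. The 11 genes Neb, Lmod3, Actn3, Tcap, Myoz1, Myot, Xirp1, Myom2, Cryab, Trim55 and Klhl30 had no matched window.

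At 4 h the set was split between a few abundant genes and many that were close to absent. In GFPi 17 of the 41 genes reached 1 FPKM and 8 reached 10 FPKM, and in pHAN_GFP 24 and 12 did. Thin filament genes together summed to 834 FPKM in GFPi and 1203 in pHAN_GFP, and Z-disc genes to 323 and 600.2 FPKM. The 6 M-line and titin genes summed to only 3.50 and 8.02 FPKM, and the chaperones and ligases to 146 and 175 FPKM. Within each role 1 gene held much of the sum in GFPi: Tpm1 57.9% of the thin filament, Des 82.6% of the Z-disc, Myom2 55.9% of the M-line group and Cryab 82.4% of the chaperones and ligases. Members that stayed under 1 FPKM in all 4 libraries were Tmod4, Actn2, Tcap, Myoz1, Myoz2, Myot, Mypn, Xirp2, Smpx, Myom1, Mybpc2, Unc45b and Trim63. Thus the main α-actinin of the adult Z-disc, Actn2, was at 0.0314 FPKM in GFPi and 0.102 in pHAN_GFP, while its fast-fibre relative Actn3 was at 5.44 and 29.9.

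Levels in the control libraries of the experiments were set side by side only, since their tables were normalized separately. The level was higher in pHAN_GFP than in GFPi for 37 of the 41 genes, against 36.7% of all genes, silent ones included. Acta1 stood 3.82 times and Actn3 5.50 times as high in pHAN_GFP as in GFPi. The 4 genes the other way were Mybpc2, Tcap, Tpm3 and Trim54, the last at 2.25 FPKM in pHAN_GFP against 5.61 in GFPi. The DRRi and overexpression comparisons do not share control samples.

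**Figure D1:**
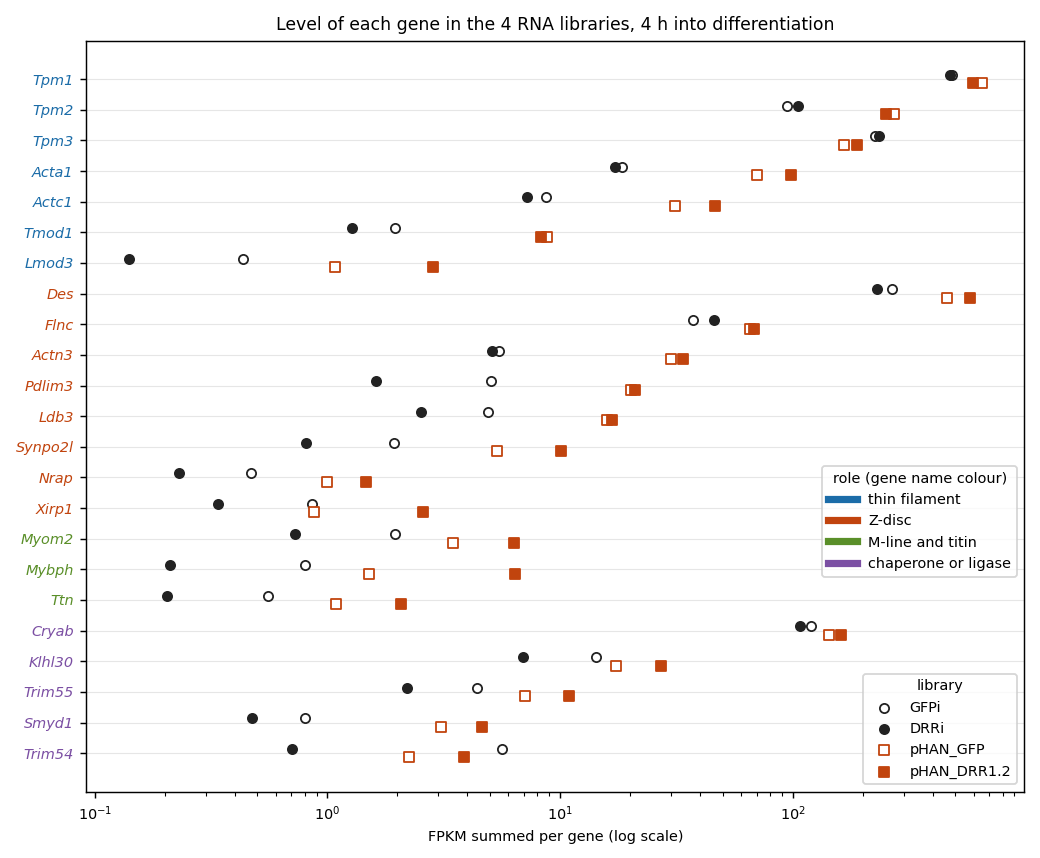
FPKM, on a log axis, of the 23 genes that averaged 1 FPKM or more in at least 1 experiment; each point is 1 library, with circles for the DRRi experiment and squares for the overexpression experiment, filled for DRR and open for GFP. Trim54, Pdlim3, Klhl30 and Ldb3 show filled circles well to the left of open ones, and Mybph, Lmod3 and Xirp1 show filled squares to the right.

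DRRi against GFPi asks what the loss of the enhancer RNA does at 4 h. Of the 41 genes, 34 had a lower level in DRRi and 5 a higher one, where 36.0% of all genes were lower and 38.8% higher. These counts take any difference, however small: 4 of the 34, Myom1, Myoz1, Mypn and Tcap, were less than 1% lower. That leaves 30 (73.2%), against 33.4% of all genes. Genes equal in both libraries, all of which averaged under 1 FPKM, lower these shares of all genes. Of the 10577 genes averaging 1 FPKM or more, 4919 were lower in DRRi and 5658 higher. Lower by 1.5-fold or more were 7 genes, Trim54, Pdlim3, Klhl30, Myom2, Ldb3, Trim55 and Synpo2l, against 1.89% of all genes, and none was higher by as much, against 2.62%. By 2-fold or more only Trim54 and Pdlim3 were lower, against 0.432% of all genes, and none was higher, against 0.471%. A filter of a mean of 1 FPKM, which 17 members passed, gave the same 7 and none higher, where 3.5% of 10577 genes were lower and 4.66% higher. A member that passed through its control library alone had to differ, so the share of the 17 is not read further. With a mean of at least 5 FPKM only Klhl30 was still 1.5-fold lower. The median log2 change of the 41 genes was -0.09, against 0.00 over all genes. That of the 17 was -0.25, against 0.02, and is not read further, for the reason given for their share. The last gene inside the limit was Synpo2l with a log2 change of -0.70, and the first outside was Mybph with -0.57.

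In the thin filament the abundant genes lay within 1.5-fold of the control. Acta1, skeletal α-actin, gave 17.3 FPKM with DRRi against 18.5 with GFPi, and Actc1, the cardiac actin that young skeletal muscle also makes, at 7.18 against 8.74. The tropomyosins, which lie along actin and gate its contact with myosin, gave 477 against 483 FPKM for Tpm1, 106 against 94.5 for Tpm2 and 235 against 226 for Tpm3. The sum for Tpm1 covers 10 coding sequences, and Tpm1 also makes nonmuscle forms, so it is not a measure of the muscle form alone. Its leading coding sequence was at 356 FPKM in DRRi and 393 in GFPi, while another was at 84.2 and 43.4. Several weak thin filament genes had lower values in DRRi. Neb, the nebulin that runs the length of the filament, was at 0.0435 against 0.194 FPKM. Lmod3, a leiomodin that starts actin filaments, was at 0.14 against 0.434 FPKM, and Tmod1, which caps their pointed ends, at 1.27 against 1.95. The locus of Tmod1 is joined with that of Tstd2 in the tables. No thin filament gene of the 10 reached 1.5-fold, where 1.89% of all genes were lower by as much and 2.62% higher. The median log2 change of the 10 was -0.12.

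The Z-disc held the second largest difference of the set. Pdlim3, a PDZ and LIM protein that binds α-actinin, stood at 1.62 FPKM in DRRi against 5.03 in GFPi, a log2 change of -1.20; the authors' deposited table gives it a q-value of 0.108. Ldb3, another α-actinin partner of the same protein family, was at 2.52 against 4.91 FPKM, a log2 change of -0.75. That figure sums 7 coding sequences, and the strongest of them alone, 1.23 against 1.68 FPKM, gave -0.26 and so lay inside 1.5-fold. Synpo2l, an actin-bundling protein of the Z-disc, was at 0.805 against 1.93 FPKM. The more abundant Z-disc genes were closer between the libraries or higher in DRRi. Des, desmin, the intermediate filament that ties neighbouring Z-discs, gave 231 FPKM with DRRi against 267 with GFPi. Flnc, the muscle filamin, was at 45.9 against 37.4 FPKM, the highest log2 change of the set at 0.29. Actn3 was at 5.11 against 5.44 FPKM, and Xirp1, an actin-binding Xin repeat protein, at 0.339 against 0.862. Nrap, a scaffold of early myofibrils whose locus is joined with Habp2, was at 0.231 against 0.468 FPKM. Over the 17 genes 3 were 1.5-fold lower, against 1.89% of all genes, and 9 were lower by 1% or more, against 33.4%. Myoz1, Mypn and Tcap were less than 1% lower, and Smpx and Myoz2 were listed at 0 in both libraries.

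Of the 6 M-line and titin genes 5 were lower in DRRi by 1% or more, against 33.4% of all genes. Myom1 was level at 0.0557 FPKM against 0.0558. Most of the 6 were under 1 FPKM in both libraries. Myom2, a myomesin that crosslinks thick filaments, stood at 0.726 FPKM against 1.95, a log2 change of -0.78. Titin (Ttn) was at 0.204 against 0.553 FPKM over its 2 coding sequences. The authors' deposited table calls 1 of these lower, at 0.158 against 0.438 FPKM with a q-value of 0.0298. Mybph, a relative of the thick filament's myosin-binding protein C, was at 0.210 against 0.801 FPKM. Its locus is joined with that of Adora1 in the tables.

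The chaperones and ligases held the largest difference. Trim54, a ubiquitin ligase of the MuRF family (MuRF3) that binds microtubules and the sarcomere, stood at 0.707 FPKM in DRRi against 5.61 in GFPi, 7.93 times as high in the control. Its log2 change was -1.95, and the authors' deposited table gives a q-value of 1.38e-04. Klhl30, a Kelch protein found in muscle, was at 6.95 against 14.3 FPKM, a log2 change of -0.95. Its q-value in the authors' deposited table was 0.112. Trim55 (MuRF2), which binds titin near the M-line, was at 2.19 against 4.38 FPKM. Trim63, the MuRF1 of muscle atrophy, could not be judged at 0.0169 against 0.0339 FPKM. Cryab, the small heat shock protein αB-crystallin that protects desmin, was abundant and close in both, at 108 against 120 FPKM. Smyd1, a methyltransferase that acts with the myosin chaperone Unc45b, was at 0.475 against 0.797 FPKM. All 8 had a lower value in DRRi, against 36.0% of all genes, and 3 of them by 1.5-fold, against 1.89%. Of the 8, Trim63 and Unc45b, the latter at 0.017 against 0.0768 FPKM, were close to absent. Over the whole set the authors' deposited table calls 2 of the 25 genes it tested, Trim54 and Ttn, both lower, against 0.609% of all tested genes, and none higher, against 0.729%.

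**Figure D2:**
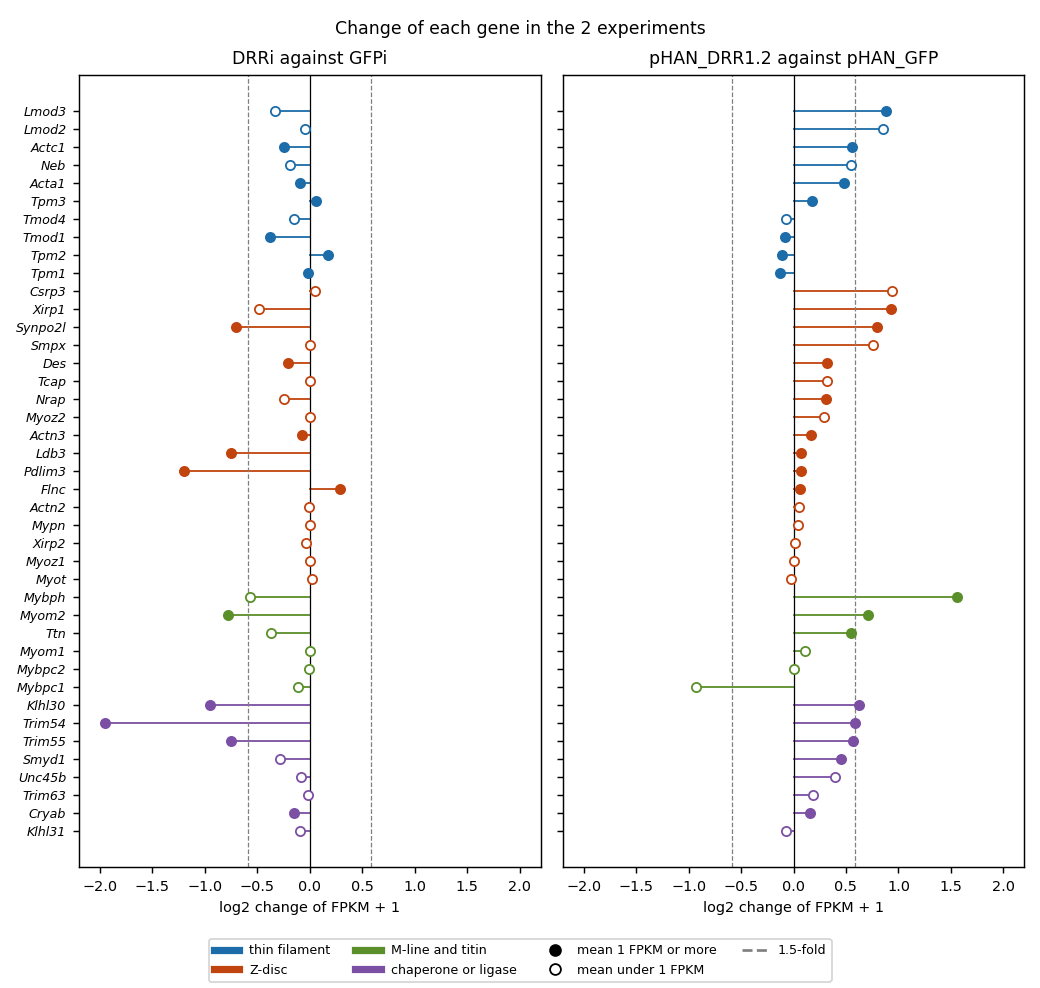
Log2 change of FPKM + 1 for each of the 41 genes, ordered by role, in DRRi against GFPi (left) and pHAN_DRR1.2 against pHAN_GFP (right); filled points have a mean of 1 FPKM or more, and dashed lines mark 1.5-fold. Points lie mostly left of 0 on the left, down to -1.95 for Trim54, and mostly right of 0 on the right, up to 1.56 for Mybph, with Mybpc1 at -0.93.

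Overexpression of DRR RNA was compared with overexpression of GFP as the complementary experiment. Of the 41 genes, 32 had a higher level in pHAN_DRR1.2 and 8 a lower one, where 39.9% of all genes were higher and 35.9% lower. Genes equal in both libraries lower these shares of all genes too. Of the 10699 genes averaging 1 FPKM or more, 5951 were higher and 4748 lower. Higher by 1.5-fold or more were 10 of the 41 genes, Mybph, Csrp3, Xirp1, Lmod3, Lmod2, Synpo2l, Smpx, Myom2, Klhl30 and Trim54, against 0.8% of all genes. Mybpc1 alone was lower by as much, against 0.408%. With the filter of a mean of 1 FPKM, which 23 members passed, 7 genes were 1.5-fold higher, without Csrp3, Lmod2 and Smpx. Of 10699 genes, 1.38% were. None of the 23 was lower by as much, against 0.654%. Xirp1, at 2.57 against 0.873 FPKM, passed through its treated library alone and had to differ, so the share of the 23 is not read further. Of the 41 genes, only Mybph was higher by 2-fold or more, against 0.172% of all genes, and none was lower by as much, against 0.0589%. With a mean of at least 5 FPKM only Klhl30 and Synpo2l were still 1.5-fold higher. The median log2 change of the 41 genes was 0.29, against 0.00 over all genes. That of the 23 was 0.45, against 0.02, and is not read further, for the reason given for their share. Trim54 with 0.59 was the last gene inside the limit and Trim55 with 0.57 the first outside.

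The muscle actins had higher values in pHAN_DRR1.2, while the 3 tropomyosins lay close to their controls. Acta1 stood at 98.7 FPKM against 70.6 in pHAN_GFP, and Actc1 at 46.4 against 31.2, log2 changes of 0.48 and 0.56 that stay inside 1.5-fold. Tpm1 was at 596 against 651 FPKM, Tpm2 at 252 against 272, and Tpm3 at 189.6 against 167. The genes that set filament length and ends differed among themselves. Lmod2 stood at 1.08 FPKM against 0.157 and Lmod3 at 2.84 against 1.08, with q-values of 7.26e-04 and 0.0164 in the authors' deposited table. Neb was at 1.31 against 0.572 FPKM with a q-value of 1.83e-04 there, but the capping gene Tmod1 was at 8.27 against 8.82. Of the 10 thin filament genes, 6 were higher and 4 lower, against 39.9% and 35.9% of all genes.

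In the Z-disc the abundant genes again lay within 1.5-fold of the control. Past it were 4 weaker ones, all higher, against 0.8% of all genes. Des stood at 577 FPKM in pHAN_DRR1.2 against 460.5, Flnc at 68.2 against 65.4 and Actn3 at 33.7 against 29.9. Pdlim3 and Ldb3, low in DRRi, were level here, at 21.1 against 20.1 FPKM and 16.8 against 15.9. Synpo2l was at 10.1 against 5.37 FPKM, a log2 change of 0.80 with a q-value of 0.00489 in the authors' deposited table. Xirp1 was at 2.57 against 0.873 FPKM, a log2 change of 0.93 with a q-value of 6.94e-05 there. Csrp3, a LIM protein of the Z-disc and nucleus, was at 1.61 against 0.358 FPKM. Smpx, a small muscle protein encoded on the X chromosome, was at 0.886 against 0.112 FPKM. For those genes the authors' deposited table gives q-values of 0.0715 and 0.0720. Nrap was at 1.47 against 1.00 FPKM. Of the 17 Z-disc genes, 15 were higher, against 39.9% of all genes. The exceptions Myot and Myoz1 were at or under 0.253 FPKM in both libraries. Among the 15, Actn2, Mypn, Xirp2, Myoz2 and Tcap were also low, at or under 0.293 FPKM in both.

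The group called M-line and titin contained the extremes in both directions, both of them genes of the myosin-binding protein C family. Mybph stood at 6.38 FPKM against 1.51, a log2 change of 1.56, and Mybpc1, the slow skeletal myosin-binding protein C, at 0.243 against 1.37, a log2 change of -0.93. Both have a q-value of 3.23e-06 in the authors' deposited table. Myom2 was at 6.33 against 3.48 FPKM with a q-value of 0.0164 there. Ttn was at 2.07 against 1.09 FPKM, and no coding sequence of it was called in the overexpression experiment. Myom1 and Mybpc2 stayed under 1 FPKM.

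Among the chaperones and ligases, Klhl30 stood at 27.3 FPKM in pHAN_DRR1.2 against 17.4, a log2 change of 0.62 with a q-value of 0.0426 in the authors' deposited table. Trim54 was at 3.88 against 2.25 FPKM and Trim55 at 10.9 against 7.05, with q-values of 0.644 and 0.433 there. Smyd1 was at 4.61 against 3.09 FPKM and its partner Unc45b at 0.563 against 0.182. Cryab was at 161 against 144 FPKM. Klhl31, at 0.952 against 1.05 FPKM, was the gene of this role with a lower value. Across the set the authors' deposited table calls 8 of the 34 genes it tested higher, against 1.01% of all tested genes, and Mybpc1 lower, against 0.627%. The 8 are Klhl30, Lmod2, Lmod3, Mybph, Myom2, Neb, Synpo2l and Xirp1.

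Set side by side, 27 of the 41 genes had a lower value in DRRi and a higher one in pHAN_DRR1.2, against 17.4% of all genes, counting any difference. Among all genes averaging 1 FPKM or more in both experiments that share was 23.9%. In DRRi 3 of the 27, Myom1, Mypn and Tcap, were less than 1% lower, as was Myoz1. At 1.5-fold in both experiments there were 4, Klhl30, Myom2, Synpo2l and Trim54, of 28 among all genes (0.137%). Lower in both experiments were Klhl31, Mybpc1, Myoz1, Tmod1, Tmod4 and Tpm1, and higher in both Csrp3, Flnc and Tpm3. Trim54 was at its highest in GFPi, the control with less of most other members.

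Other gene lists were read beside these values. Among all genes averaging 1 FPKM or more, 4.66% were 1.5-fold higher in DRRi and 3.5% lower. In pHAN_DRR1.2, 1.38% were higher by as much and 0.654% lower. Of 41 further sarcomere and muscle genes, 25 passed the filter in the DRRi experiment, and of them Fhl1 and Ankrd1 were 1.5-fold higher and Cavin4, Jsrp1 and Stac3 1.5-fold lower. In the overexpression experiment 30 passed, with Stac3 and Hspb1 higher and Asb2 lower. Cavin4, a caveolar coat protein of muscle, stood at 19.6 FPKM in DRRi against 49.7 in GFPi. Of 17 nonmuscle relatives of the set, such as Actb, Flna and Vim, 15 passed in each experiment, and Actn1 (log2 change 0.60, DRRi) and Pdlim1 (0.87, pHAN_DRR1.2) were higher while none was lower by 1.5-fold.

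Markers of smooth muscle had higher summed levels in DRRi and lower ones in pHAN_DRR1.2. The list includes Acta2 and Actg2, whose coding sequences resemble those of Acta1 and Actc1. How any reads shared by these 4 actins were assigned is not known here, so their values are uncertain. The 7 markers summed to 767 FPKM in DRRi against 559.9 in GFPi. Tagln and Cnn1 were 1.5-fold higher among 5 that passed the filter, against 4.66% of all genes passing it. In the overexpression experiment the markers summed to 2230.3 against 2525 FPKM, and 1 of 6, Cnn1, was 1.5-fold lower, against 0.654%. Acta2 alone held most of each sum, at 637 FPKM in DRRi against 475 and 1791 in pHAN_DRR1.2 against 2024. Mylk went the other way in DRRi, at 0.191 against 0.361 FPKM, and Smtn in pHAN_DRR1.2, at 28.7 against 26.5. Myh11, the defining smooth muscle myosin, was at most 0.0569 FPKM in any library. Of 10 heart markers, 1 passed the filter in the DRRi experiment, Myl4, which was 1.5-fold higher. At 1.97 against 0.965 FPKM it passed through its treated library alone and had to differ. In the overexpression experiment 3 passed, with Nppb and Myl4 1.5-fold higher, against 1.38% of all genes passing, and Tnni3 lower, against 0.654%. Hand2 was listed at 0 in all 4 libraries, and Tbx5 was at most 0.00762 FPKM. The part of these genes in the results was not tested.

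MyoD and MyoG peaks lay at nearly all of the loci in myotubes. The loci are those of the expression tables, on mm9, and a peak was counted if it lay within 10 kb. MyoD was present at 29 of the 41 loci in myoblasts, against 34.3% of all loci, and at 40 in myotubes, against 56.0%. MyoG was present at 39 in myotubes, against 52.9%. Xirp2, a long and nearly silent Xin repeat gene, had no peak or domain in any of the 5 lists, and Myot had MyoD but no MyoG. The MyoD list holds 18141 peaks in myoblasts and 39700 in myotubes, so more loci are reached by the longer list, and the loci of the set have a median length of 26.6 kb against 19.1 kb for all genes. The part of list size and locus length in these counts was not tested.

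A further count, added after seeing the data, used a window of the same size at the 5′ end of each gene. The part of list size and locus length in it was not tested either. The count could be made for 27 members with a known strand and a locus of their own. Within 1 kb of the 5′ end MyoD lay at 10 of the 27 in myoblasts, against 7.66% of 12929 genes, and at 22 in myotubes, against 20.4%. MyoG lay there at 21, against 15.1%. The 10 genes with MyoD at the 5′ end already in myoblasts were Des, Klhl31, Mybpc1, Mypn, Pdlim3, Smyd1, Synpo2l, Tpm2, Trim54 and Ttn. Of these only Des and Tpm2 were above 10 FPKM in GFPi.

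Individual loci show what the counts stand for. The peak score is the authors' own, used here only to rank peaks within a list, and the highest MyoD scores sit at a ceiling of 3100 or slightly above. At Acta1 (chr8:126415667-126418636, mm9) myotubes had a MyoD peak across the start (chr8:126418356-126420544) with a score of 3100, and a MyoG peak of score 2845 in the same place. In myoblasts 1 MyoD peak overlapped the 3′ end of Acta1, with its centre 3.3 kb from the 5′ end, and another lay downstream at 9.8 kb. Des (chr1:75356919-75364290) had MyoD across its start at both stages, in the 92.0 percentile of the myoblast list and the 93.7 percentile of the myotube list. Desmin was also among the genes with the highest FPKM at 4 h. Ttn (chr2:76542041-76820604) had MyoD within 1 kb of its start at both stages, at the ceiling score in myotubes. At Lmod2 (chr6:24547771-24555414) there was no MyoD peak within 10 kb in myoblasts and 5 in myotubes, 1 of them at the ceiling 2.4 kb inside the locus.

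The genes with large differences in expression had unlike binding. Trim54 (chr5:31418985-31439999) had a MyoD peak across its start in myoblasts (score 174) and in myotubes (score 413), and a MyoG peak there with a score of 791. It is the single member with fewer MyoD peaks within 10 kb in myotubes than in myoblasts, 1 against 2. Pdlim3 (chr8:46970839-47004900) had MyoD at the start and 11.4 kb inside the locus in myoblasts, both also present in myotubes among 6 peaks. At Klhl30 (chr1:93247650-93258981) 2 intragenic MyoD peaks were present at both stages, with MyoG on each in myotubes. Mybph (chr1:136090025-136132008, joined with Adora1) had 2 MyoD and 2 MyoG peaks at a score of 3100 in myotubes. Csrp3 (chr7:56085768-56103421) had no MyoD peak within 10 kb in myoblasts, and 2 MyoD and 5 MyoG peaks in myotubes, all inside the locus. Mybpc1 (chr10:87981028-88067897), lower in pHAN_DRR1.2, was not poor in binding, with 9 MyoD and 7 MyoG peaks in myotubes. Myoz1 and Synpo2l lie 2.9 kb apart and share peaks.

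**Figure D3:**
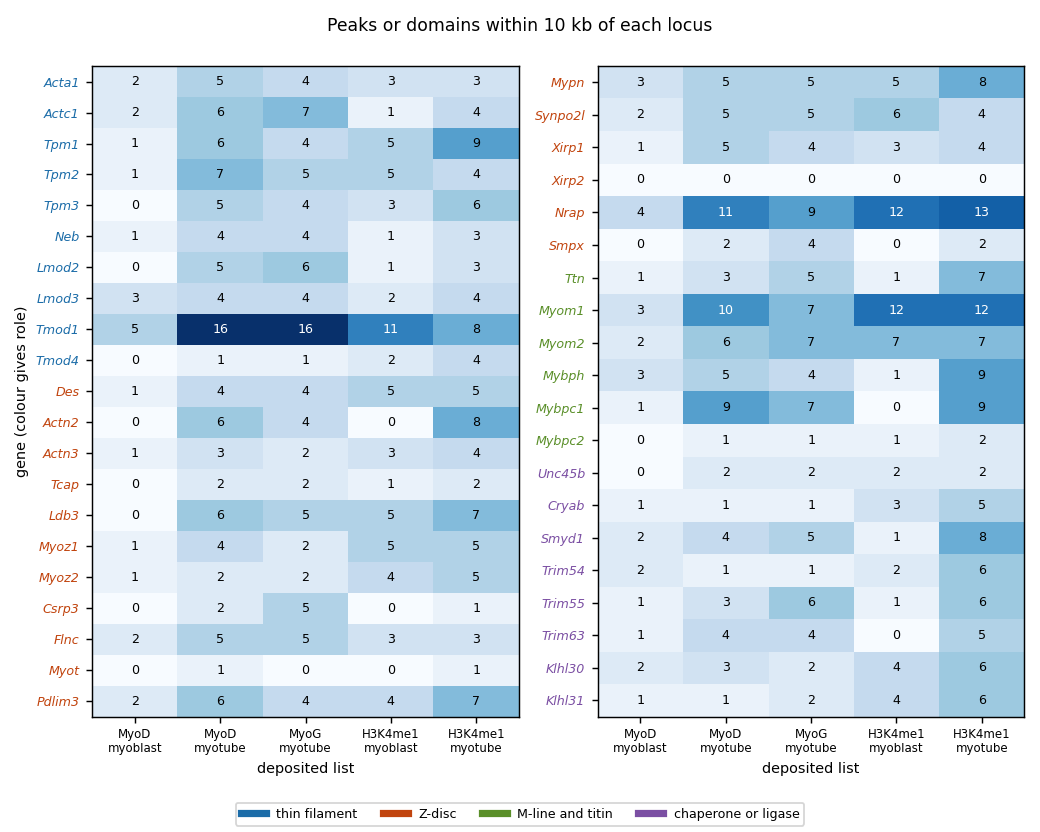
Number of MyoD and MyoG peaks and H3K4me1 domains within 10 kb of each of the 41 loci, with 1 column per list and darker cells for higher counts; gene names are coloured by role. Tmod1 has the most MyoD peaks, 16 in myotubes, and Xirp2 has none in any list.

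Most loci had more MyoD peaks in the myotube list. There were more MyoD peaks in myotubes at 37 of the 41 loci, against 45.6% of all loci, and fewer at 1, against 4.0%. A MyoD peak in myotubes with none in myoblasts was found at 11, Actn2, Csrp3, Ldb3, Lmod2, Mybpc2, Myot, Smpx, Tcap, Tmod4, Tpm3 and Unc45b, against 24.1% of all loci. That share of the set, 26.8%, is near the background. All 3 MyoD and MyoG lists touched 29 loci, against 29.9%. Counted once each, 52 myoblast MyoD peaks lay near the set, and 49 of them overlapped a myotube peak by 1 bp or more, 94.2% against 78.3% near any gene. In myotubes there were 177 MyoD peaks, of which 48 were kept from myoblasts and 129 were new. The kept share was 27.1%, against 32.3% near any gene.

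MyoG peaks lay on most of the myotube MyoD peaks. MyoG overlapped 135 of the 177, 76.3% (95% exact binomial interval 69.3 to 82.3, counting error only) against 67.0% near any gene. The interval treats peaks as independent, though many share a locus, such as 16 at Tmod1, so it is no test against the 67.0%. MyoG overlapped 45 of the 48 kept peaks, 93.8% against 81.5% near any gene, and 69.8% of the new, against 60.1%. The median score of the kept peaks was 1197, against 427 near any gene, and that of the new peaks 191, against 129.7.

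**Figure D4:**
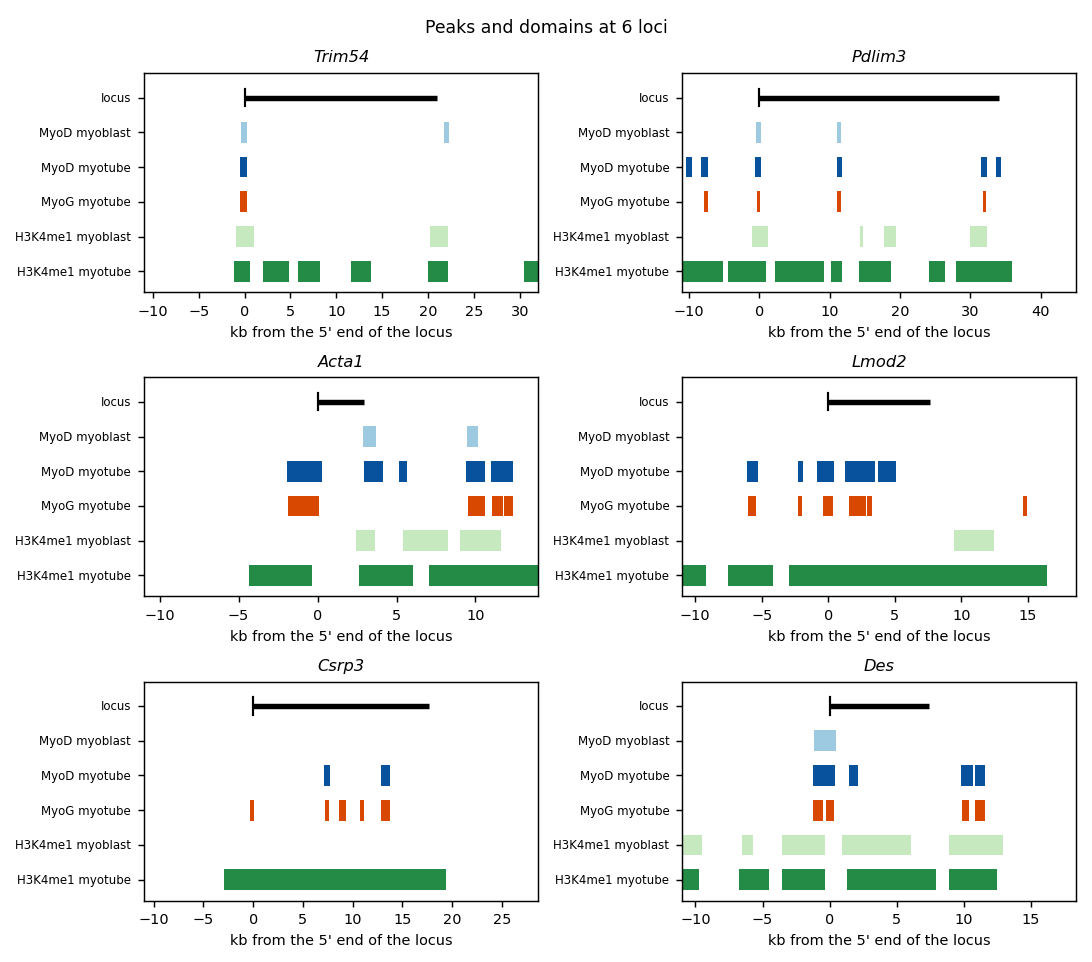
Position of MyoD and MyoG peaks and H3K4me1 domains at Trim54, Pdlim3, Acta1, Lmod2, Csrp3 and Des; the x axis is the distance in kb from the 5′ end of the locus (black bar, read left to right) and each coloured block is a peak or domain. Trim54, Pdlim3 and Des have a myoblast MyoD block at 0, Lmod2 and Csrp3 have none, and the H3K4me1 block of Csrp3 is in myotubes only.

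H3K4me1 covered more of these loci in the myotube list. A domain lay within 10 kb of 34 loci in myoblasts, against 73.6% of all loci, and of 40 in myotubes, against 72.0%. It was present in myotubes with none in myoblasts at 6, Actn2, Csrp3, Mybpc1, Myot, Smpx and Trim63, against 2.91% of all loci, and the reverse was found at none, against 4.51%. The covered length was greater in myotubes at 38 of the 41 loci, against 41.3% of all loci. The 2 with less were Flnc and Tpm1. Both were high in FPKM already at 4 h, but so were Des, Tpm2, Tpm3 and Cryab, where the covered length was greater in myotubes. The median share of the locus and its 10 kb flanks inside domains was 12.2% in myoblasts and 36.4% in myotubes, where over all genes it was 9.86% and 10.5%. Across all domains the lists cover 208.5 Mb in myoblasts and 235.6 Mb in myotubes.

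Single loci differed widely in this mark. Lmod2 was 10.9% covered in myoblasts and 85.5% in myotubes, Mybph 9.68% and 71.6%, and Pdlim3 12.2% and 62.1%. Csrp3 had no domain in myoblasts and was 59.5% covered in myotubes by 1 domain. Des, in contrast, was 50% and 58% covered, and Klhl30 54.1% and 72.1%. Ttn, a far longer locus, was 0.402% and 8.91% covered. The read density inside domains differed in direction between loci, and examples are given. At Acta1 it was 39.7 ChIP reads per kb of domain in myoblasts and 35.4 in myotubes, and at Des 57.8 and 50.8. At Pdlim3 it was 29.1 and 37.8, and at Lmod3 27.2 and 41.6. By role, the median coverage was 18.1% and 56.3% for the thin filament, 12.7% and 35.5% for the Z-disc, 5.77% and 29.5% for the M-line and titin, and 8.14% and 30.6% for the chaperones and ligases. At the 5′ end, within 1 kb, the mark was found at 11 of 27 members in myoblasts, against 51.3% of genes, and at 25 in myotubes, against 48.3%.

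**Figure D5:**
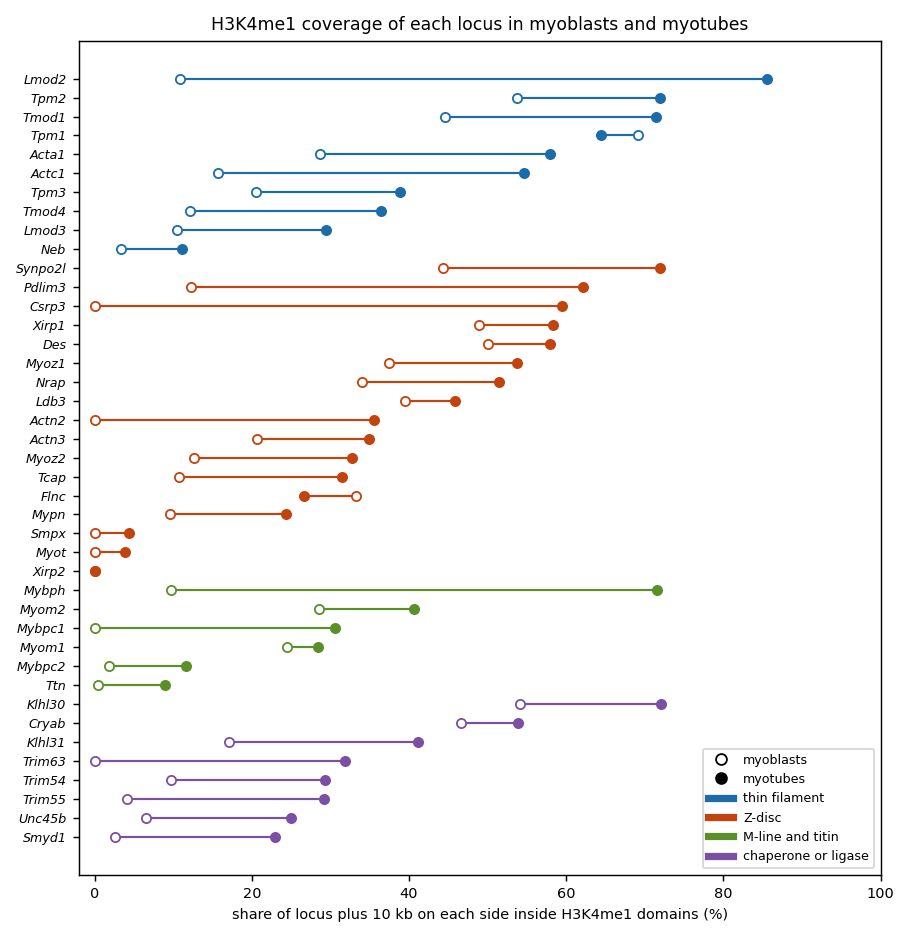
Share of each locus with its 10 kb flanks that lies inside H3K4me1 domains, in % of length, with open points for myoblasts and filled points for myotubes, joined by a line and ordered by role. Filled points lie to the right at 38 of 41 loci, with the widest gap at Lmod2 (10.9% and 85.5%), and to the left at Flnc and Tpm1.

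Many new MyoD peaks lay in H3K4me1 that was also new. Of the 129 new peaks, 69 were in H3K4me1 called in myotubes only, 53.5% against 34.3% of new peaks near any gene. Of the 48 kept peaks, 39 were in H3K4me1 of both stages, 81.2% against 83.4% near any gene.

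Binding in myoblasts was set beside expression at 4 h. The 29 members with a myoblast MyoD peak within 10 kb had a median log2 change of -0.21 in DRRi and 0.31 in pHAN_DRR1.2. The 12 without had medians of -0.01 and 0.13, but only 2 of the 12 passed the filter of 1 FPKM, Ldb3 and Tpm3. Over all genes the medians were 0.00 and 0.01 with a peak, and 0.00 in both experiments without. Among the members that passed the filter the medians in DRRi were -0.25 over 15 with a peak and -0.34 over the 2 without, and in pHAN_DRR1.2 0.48 over 21 and 0.13 over 2. So in DRRi the order of the medians turned once genes under 1 FPKM were left out. But the -0.34 is only the midpoint of Ldb3 (-0.75) and Tpm3 (0.06). With its strongest coding sequence Ldb3 was at -0.26, so this turn is not read further.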

How the data were processed

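The members and the gene lists were chosen with earlier results of these data known. Of 11 samples, 9 were used and 2 ribosome-depleted RNA samples were not used here. Groups came from the labels. Expression came as 2 tables, 1 per experiment, whose conditions were taken as the labelled libraries from their names (GFP for the controls, another name for DRR). FPKM, p-values and q-values per coding sequence were deposited by the authors in a Cuffdiff-like layout, per the file headers, which name no tool. Per the submitters' processing notes, TopHat and SICER were used, on mm9; no versions are named. The MyoD and MyoG lists are from MACS, per the file headers, with a score from the authors whose definition is not given in the sources used here. Whether the 2 ChIP runs that the labels name per factor sample were pooled is likewise not given. H3K4me1 domains, on 200 bp windows, carry deposited counts of ChIP and control reads and their fold or ratio, as the authors gave them.

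FPKM was summed per symbol and compared within a table as log2 with a pseudocount of 1, with and without a filter of a mean of 1 FPKM. A member is described with all 4 libraries where it passed that filter in at least 1 table, and others by examples. Genes of other lists are named where they passed the filter and 1.5-fold. The other lists were further sarcomere genes, nonmuscle relatives, and smooth muscle, heart and myogenic markers. Peaks within 10 kb of a locus, overlapping by 1 bp or more, were counted with code tested on simulated data (Python 3.11.15, pandas 2.3.3, numpy 2.4.6). Loci of 3 members (Tmod1, Nrap and Mybph) are joined with a neighbour in the tables. Strand for the 5′ end came from the RefSeq promoter table, whose coordinates (GRCm38.p6) were not combined with mm9. Promoters were shown for up to 6 members with the largest changes and a MyoD or MyoG peak within 2 kb. Alternatives were another pseudocount, filter, coding sequence rule, centring, window, score limit and overlap. A count at the 5′ end and one without the joined loci were added after seeing the data. Read depths of the RNA libraries are unknown. ChIP reads inside domains came to 9555012 (myoblasts) and 8842751 (myotubes), which are not library depths.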

Additional observations from a re-analysis of the deposited data

How the results depend on the processing

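Of 191 single-gene values under the alternatives, 186 stayed on their side of 1.5-fold, 5 crossed it, and none past 1.5-fold changed sign. Ldb3 in pHAN_DRR1.2, inside it, was 0.07 as a sum and -0.10 with its strongest coding sequence. The crossings were Ldb3 in DRRi (-0.26 with its strongest coding sequence), Trim55 (0.62) and Ttn (0.86) in pHAN_DRR1.2 with a pseudocount of 0.1, Ttn there with its strongest coding sequence (0.59), and Trim54 there after centring (0.57). With a filter of a mean of 5 FPKM, 1 member, Klhl30, was 1.5-fold lower in DRRi and 2, Klhl30 and Synpo2l, were higher in pHAN_DRR1.2, and the medians were -0.08 and 0.17. Without a filter the medians were -0.09 and 0.29, against -0.25 and 0.45 with a mean of 1 FPKM, and 1 member was 1.5-fold lower in pHAN_DRR1.2. The median of all genes averaging at least 1 FPKM (10577 and 10699) lay 0.022 and 0.019 above 0. With a window of 25 kb, 7 members had MyoD in myotubes and not in myoblasts. At the 5′ end MyoD was at 10 members in myoblasts and 22 in myotubes and MyoG at 21, of 27 that could be read. The other 46 of 57 results stayed within 1.5 times (counts), 0.1 log2 (medians) or the binomial interval (the MyoG share). Among these the 7 genes higher in pHAN_DRR1.2 were 10 without a filter and 9 with a pseudocount of 0.1, and the 11 loci with MyoD in myotubes only were 15 with a window of 2 kb. Asking for an overlap of at least 50% of the MyoD peak gave MyoG at 69.5% of the myotube peaks. No paired analysis was possible because each group is 1 library, and for the same reason no library could be left out. The unknown RNA depth limits what can be said of genes under 1 FPKM.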
